A study of Mus musculus with 24 samples.

Results

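The genes described here are 36 genes of G2 and mitosis, listed by symbol and looked up by exact symbol among 24970 gene symbols; all 36 were found in each of 4 expression tables. They cover the chromosome proliferation marks Mki67 and Top2a, the cyclins Ccna2, Ccnb1 and Ccnb2 with Cdk1, the anaphase regulators Cdc20 and Ube2c, the checkpoint kinases Bub1, Bub1b and Ttk, and the kinases Aurka, Aurkb, Plk1, Nek2, Melk and Pbk. The others are the chromosomal passenger subunits Birc5 and Cdca8, the centromere and kinetochore genes Cenpa, Cenpe, Cenpf and Knstrn, the kinesins Kif11, Kif20a, Kif23, Kif2c and Kif4, the spindle genes Tpx2, Nusap1, Hmmr and Prc1, the cytokinesis pair Racgap1 and Ect2, and Cdca3 and Cdkn3. No expression value entered the choice rule, but the list was drawn up with earlier results of these data known.

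The libraries came from mice in which Sftpc-CreER, a tamoxifen-activated Cre recombinase made in alveolar type 2 (AT2) cells, was used to delete the microRNA genes let-7a, let-7f and let-7d. AT2 cells are the surfactant-producing cells of the alveolus and can divide to renew it. Controls were Sftpc-CreER/+; R26-tdT/+ and knockouts were let7afd-/-;Sftpc-CreER/+; R26-tdT/+, so both genotypes carried the Cre driver and the tdTomato reporter, and both received tamoxifen; ages were not given. Flow-sorted AT2 cells were taken 6 days after tamoxifen, with 3 libraries per genotype and 3 mice pooled in each library. Whole lungs came from 3 mice of each genotype at 6 days and from 4 mice of each genotype that had booster tamoxifen for 6 months. AT2 organoids, grown from AT2 cells in 3D culture for 14 days, came from 2 mice per genotype, and the labels give a tamoxifen time of 6 days for them. The deletion is restricted to cells that express Sftpc, so most cells of a whole lung kept their let-7 genes, and the deleted genes cannot be checked here: Mirlet7a-1, Mirlet7d and Mirlet7f-1 stood at 0 TPM in controls and knockouts alike.

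Cells entering mitosis activate Cdk1 with cyclin B, condense their chromosomes, build a spindle and attach it to kinetochores. The spindle checkpoint holds back the anaphase-promoting complex (APC/C) and its activator Cdc20 until all chromosomes are attached, and the cell is then cleaved in cytokinesis. Transcripts of these genes accumulate together in G2 and M, so their summed level in a tissue is widely used as a sign of dividing cells. In bulk RNA a larger share of dividing cells and more of each transcript per dividing cell cannot be told apart.

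The deleted microRNAs are shown first because the comparison rests on them. The RefSeq sequences on GRCm38.p6 lie close together on the minus strand of chromosome 13, at chr13:48538239-48538260, chr13:48537889-48537910 and chr13:48536078-48536099; capitals mark the seed, bases 2 to 8, which is the same in all 3.
let-7a-5p: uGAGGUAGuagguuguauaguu
let-7f-5p: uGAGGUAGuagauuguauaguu
let-7d-5p: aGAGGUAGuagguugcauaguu
The same seed is carried by family genes that were not deleted: Mirlet7b, Mirlet7c-1, Mirlet7c-2, Mirlet7e, Mirlet7f-2, Mirlet7g, Mirlet7i and Mir98. Of these, Mirlet7f-2 on chromosome X gives the same mature let-7f-5p as the deleted gene. MicroRNAs of this family act on transcripts that pair with the seed, mostly in the 3′ UTR. The 8-base site CTACCTCA, which is the match to the whole seed followed by an A, was sought in the longest annotated 3′ UTR. It was found in 0 of the 36 genes and in 3.6% of 20821 genes. CTACCTC matches the whole seed without that A, and TACCTCA has the A but lacks the match to base 8. At least 1 of these shorter sites was found in 6 of the 36 genes (16.7%) and in 16.5% of all genes. The median 3′ UTR length was 803 bases for the 36 genes and 1111 bases for all. The 6 genes were Cdk1, Birc5, Cenpa, Kif11, Nusap1 and Cdkn3. The stretches around the match are shown for the 3 of them that the results below turn on most, with the match in capitals, as 30 bases of the 3′ UTR in the sense of the transcript.
Cdkn3, bases 931 to 937 of the UTR: gtcctttgtgaCTACCTCtgtgcttgcatc
Birc5, bases 506 to 512 of the UTR: ggcaaacactaTACCTCAtcctcgaaggat
Cdk1, bases 965 to 971 of the UTR: cagtttaccagTACCTCAgcctcagcctcc
Birc5 also holds the match CTACCTC at bases 2663 to 2669 of its UTR, not shown. A match is a description of letters and not of a working site.

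Many G2 and mitosis genes share the promoter element CHR (TTTGAA) and the CCAAT box, through which the DREAM and MuvB complexes and NF-Y act in cycling cells. RefSeq promoters on GRCm38.p6 were matched for 31 of the 36 genes, not for Ccna2, Kif20a, Tpx2, Pbk and Aurkb, and both strands of the 250 bases before the start were searched. The CCAAT box, whose letters on the other strand read ATTGG, was present in 26 of 31 promoters (83.9%), against 37.5% of 27025 genes and 41.2% of the 8866 genes with a promoter that were tested in all 4 tables. The CHR, whose letters on the other strand read TTCAAA, was present in 11 of 31 (35.5%), against 18.3% and 12.6%, and both motifs lay in the same window in 10 of 31 (32.3%), against 6.45% and 4.94%. Stretches of 30 bases from genes whose values are given below show how the motifs lie, with the motif in capitals, read in the direction of the gene.
Cdc20, chr4:118437344-118437373, minus strand, CHR: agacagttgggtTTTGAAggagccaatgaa
Mki67, chr7:135716460-135716489, minus strand, CHR: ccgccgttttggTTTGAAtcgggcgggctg
Cdk1, chr10:69352913-69352942, minus strand, CHR: ctttaccgcggcgagTTTGAAactgctggc
Ccnb1, chr13:100786536-100786565, minus strand, CCAAT box: gccacgaactggCCAATgaggagcgagcgg
Plk1, chr7:122159405-122159434, plus strand, CCAAT box: ttttaaatccccgcggCCAATcagcaacgc
Cdkn3, chr14:46760437-46760466, plus strand, CCAAT box: acttcctctgaaCCAATgagtagtcagagg
In Cdc20 the same 30 bases hold a CCAAT box, in lower case here, a few bases past the CHR. Ccnb1 and Plk1 are among the promoters with a CCAAT box and no TTTGAA in the window.

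All values are TPM, a level per transcript length scaled to a fixed sum per library, and TPM keep no read number, so sequencing depth is unknown. Fold changes are log2 of TPM + 1, knockout against control, with the SE of a limma fit over all genes of the table. A gene passed at a Benjamini-Hochberg adjusted p under 0.05, and the p-values measure the spread between the libraries of a group. A gene was tested when enough libraries to fill the smaller group held at least 1 TPM. All 36 genes held at least 1 TPM in every library of sorted AT2 cells, 6-day lungs and organoids, while 33 of 36 were tested in 6-month lungs. The libraries were not stranded, and 11 of the 36 genes share exon bases with a gene on the other strand, by 29.3% of the exon bases for Kif20a, 22.8% for Ube2c, 15.1% for Kif4, 12.5% for Ccna2 and 11.1% for Prc1 and by 2.4% to 7.1% for Plk1, Nek2, Cdca8, Nusap1, Cdc20 and Knstrn. Reads from the shared stretches cannot be told apart, so these levels are less certain.

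In sorted AT2 cells 35 of the 36 genes rose in the knockout 6 days after tamoxifen, and 0 fell; 6.62% of 12109 genes tested passed as higher and 1.22% as lower. All 36 genes were higher in every knockout library than in every control library, a pattern held by 25.4% of all genes tested. The median log2 fold change of the 36 was 0.89, against 0.08 over all genes tested, of which 63.5% had a positive value, and the values ran from 0.44 to 1.32. The summed level of the 36 genes was 650 ± 34.0 TPM (SD, n = 3) in controls and 1262 ± 37.4 TPM in knockouts, a ratio of 1.94. Ratios of the mean TPM of single genes ran from 1.38 to 2.63 with a median of 1.91. Of all calls in sorted AT2 cells 84.4% were higher, or 67.3% with median-ratio scaling and 65.0% with quantile normalization, and the same 35 genes passed under both.

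**Figure D1:**
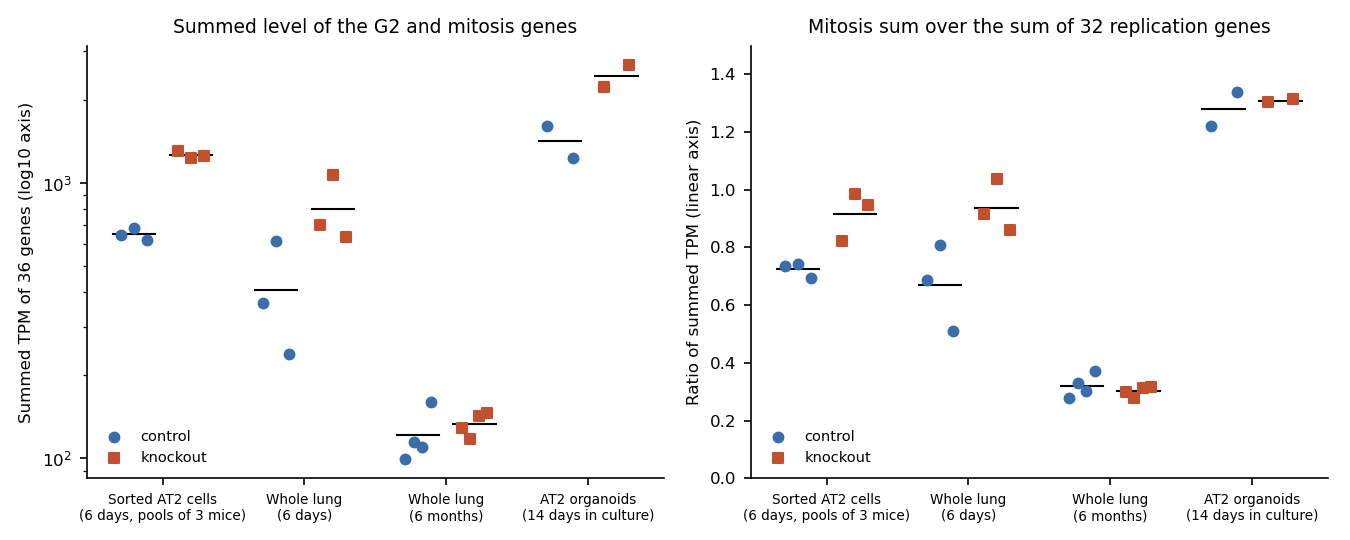
Summed TPM of the 36 G2 and mitosis genes (left, log10 axis) and that sum divided by the sum of 32 DNA replication genes (right, linear axis), for each library of the 4 kinds of sample; circles are controls, squares are knockouts and black lines are means. The sorted AT2 sums are 618 to 686 TPM in controls and 1232 to 1304 TPM in knockouts, while the 6-month lung sums overlap at 99.5 to 160 and 117 to 146 TPM.

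The mitotic cyclins and Cdk1, which drive entry into mitosis, all rose in sorted AT2 cells. Ccnb1, cyclin B1, was 18.0, 19.9 and 18.1 TPM in the control libraries and 37.6, 38.7 and 38.3 TPM in the knockout libraries, a log2 fold change of 1.00 ± 0.08 (SE; limma adjusted p 0.0023). Ccna2, cyclin A2, was 14.0, 15.3 and 14.6 TPM in controls and 37.3, 29.5 and 29.7 TPM in knockouts (1.08 ± 0.11). For Ccnb1 the libraries of a genotype lay close together, and for Ccna2 knockout 1 stood above the other knockouts; the genotypes did not overlap for either. Ccnb2, cyclin B2 (1.03 ± 0.10), and Cdk1 (0.88 ± 0.09) changed by similar amounts, and Cdk1 rose from a mean of 9.45 to 18.2 TPM.

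Cdc20, the APC/C activator that triggers anaphase, had the highest level of the 36 genes in sorted AT2 cells. It was 79.6, 79.1 and 74.2 TPM in controls and 168, 176 and 167 TPM in knockouts, so the libraries of each genotype lay close together and far from the other genotype (1.12 ± 0.07, limma adjusted p 0.00146). Ube2c, the ubiquitin-conjugating enzyme that works with the APC/C, rose by 0.89 ± 0.08 from a control mean of 56.6 TPM. The proliferation marks Mki67, which coats mitotic chromosomes, and Top2a, the DNA topoisomerase that untangles sister chromatids, rose by 0.88 ± 0.10 and 0.81 ± 0.09. Mki67 was 18.1, 22.1 and 19.7 TPM in controls and 39.1, 34.5 and 39.1 TPM in knockouts, with no overlap.

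Among the spindle checkpoint kinases, Bub1b (BubR1, a brake on Cdc20) was 14.3, 14.6 and 12.7 TPM in controls and 23.7, 23.4 and 24.2 TPM in knockouts (0.74 ± 0.09, limma adjusted p 0.00521). Ttk (Mps1, which starts the checkpoint signal) rose by 0.74 ± 0.15 from a mean of 3.30 TPM. Bub1, a kinase at the kinetochore, was the only gene of the 36 that did not pass in sorted AT2 cells: it was 18.3, 16.1 and 13.1 TPM in controls and 24.2, 22.5 and 18.7 TPM in knockouts, a log2 difference of 0.44 ± 0.14 with a limma adjusted p of 0.0923. Its genotypes did not overlap, but the highest control and the lowest knockout of Bub1 lay close together.

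Plk1, the Polo kinase of mitotic entry and spindle assembly, showed the largest rise of the 6 other mitotic kinases in sorted AT2 cells, from 12.2, 14.0 and 12.4 TPM to 27.9, 25.3 and 29.3 TPM (1.04 ± 0.10). Nek2, a centrosome kinase (0.95 ± 0.09), Pbk (0.91 ± 0.09), Aurkb, the passenger complex kinase (0.87 ± 0.12), Aurka, the spindle pole kinase (0.80 ± 0.09), and Melk (0.67 ± 0.10) also rose. The passenger complex subunit Birc5 (survivin) was 24.5, 26.4 and 22.7 TPM in controls and 58.0, 53.8 and 49.5 TPM in knockouts (1.10 ± 0.09, limma adjusted p 0.00257), and its partner Cdca8 (borealin) rose by 1.02 ± 0.10. Every knockout library was above every control library for each of these 8 genes.

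At the centromere and kinetochore, Knstrn, a spindle and kinetochore protein, was 11.4, 10.95 and 10.2 TPM in control AT2 libraries and 26.4, 25.1 and 23.0 TPM in knockouts (1.12 ± 0.09). Cenpe, the kinetochore motor (0.97 ± 0.11), Cenpa, the centromeric histone (0.96 ± 0.10), and Cenpf, an outer kinetochore protein (0.66 ± 0.11), also rose. Of the 5 kinesins, Kif2c, which takes apart microtubules at centromeres, changed most, from 5.47, 5.59 and 4.14 TPM to 11.2, 10.9 and 9.48 TPM (0.94 ± 0.13). The genotypes of Knstrn and Kif2c were separate, with control 3 the lowest library for both. Kif11, which pushes spindle poles apart, Kif20a and Kif23 of the cleavage furrow and the chromosome kinesin Kif4 rose by 0.84 to 0.89.

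Tpx2, the spindle assembly factor that activates Aurora A, was 13.8, 14.1 and 13.1 TPM in control AT2 libraries and 27.7, 26.4 and 24.5 TPM in knockouts (0.89 ± 0.08). Hmmr (0.84 ± 0.11), Nusap1 (0.74 ± 0.10) and the midzone bundler Prc1 (0.68 ± 0.08) rose too, and so did the RhoA regulators of the cleavage furrow, Racgap1 (0.90 ± 0.11) and Ect2 (0.77 ± 0.08). Racgap1 was 20.9, 25.9 and 21.3 TPM in controls and 47.5, 40.8 and 41.3 TPM in knockouts. Cdkn3, a phosphatase that acts on cyclin-dependent kinases, had the largest change of the 36: it was 13.0, 13.1 and 12.5 TPM in controls and 37.1, 31.1 and 33.2 TPM in knockouts (1.32 ± 0.09, limma adjusted p 0.00175). Cdca3, which targets mitotic entry inhibitors for degradation, rose by 0.97 ± 0.12. All libraries of Tpx2, Racgap1, Cdkn3 and Cdca3 separated by genotype.

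**Figure D2:**
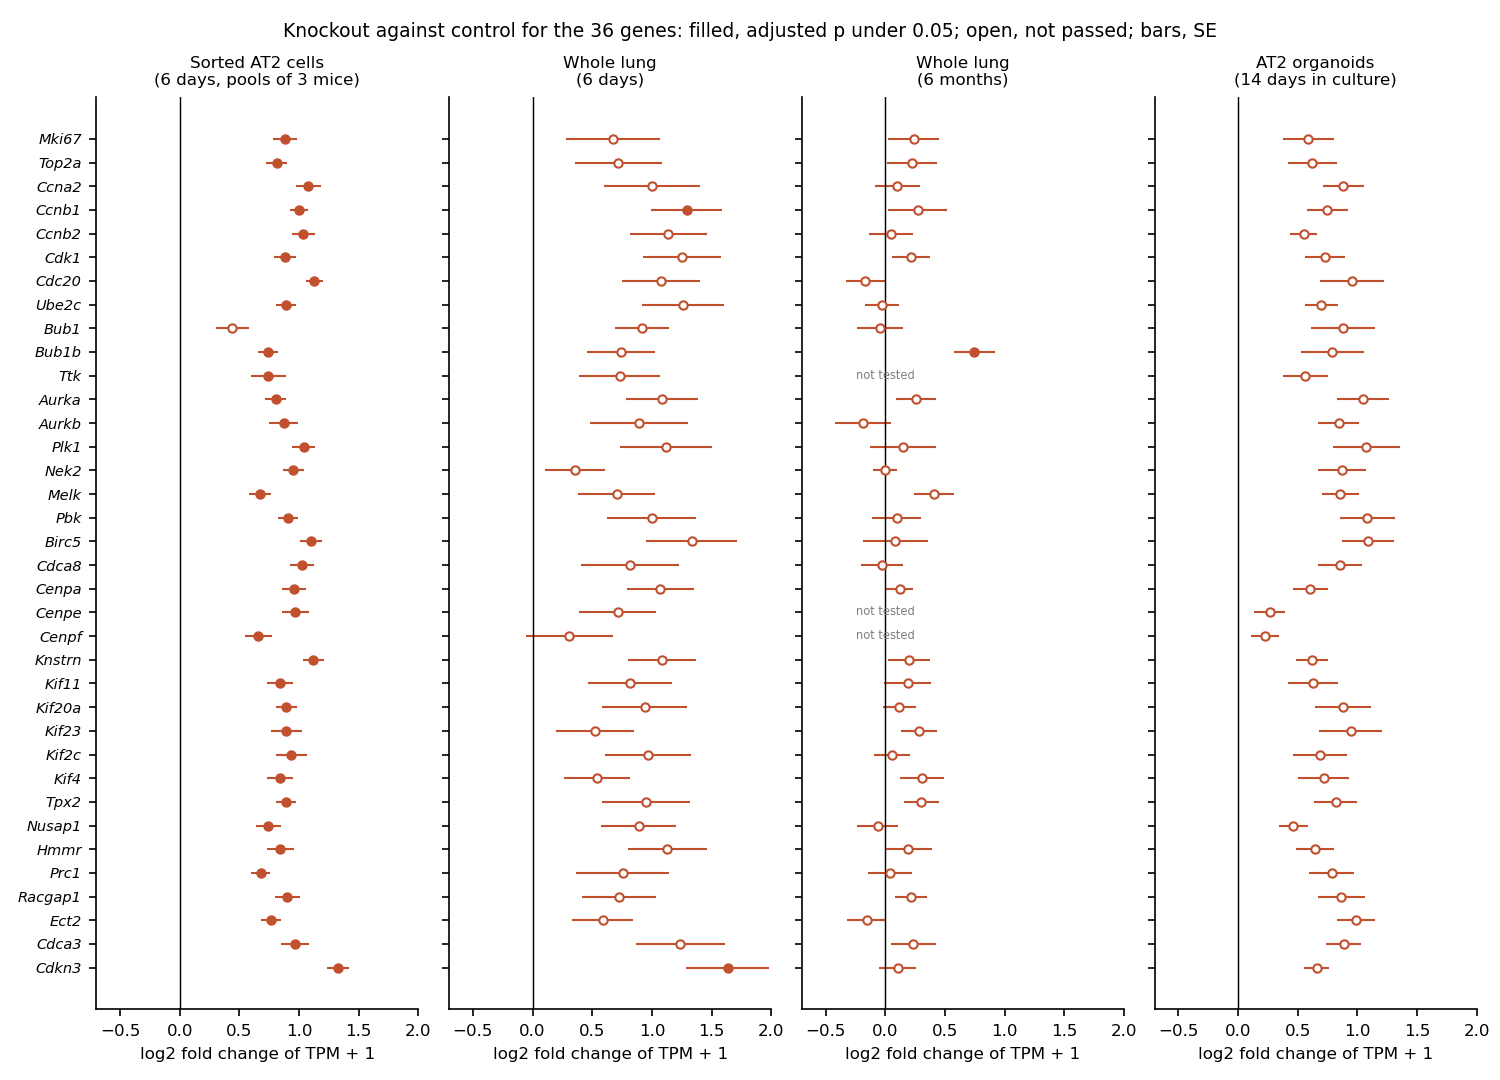
Log2 fold change of TPM + 1 (knockout against control) with its SE for each of the 36 genes in the 4 kinds of sample; filled points passed at an adjusted p under 0.05, open points did not pass, and genes below the filter are marked as not tested. In sorted AT2 cells 35 points are filled between 0.66 and 1.32, and in 6-month lungs Bub1b is the only filled point.

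The 6-day whole lungs differed in the same direction, with a wider spread between mice. All 36 genes had a positive log2 fold change, as did 35.8% of all genes tested, and the median was 0.93 against a median of -0.14 over all genes. With limma 2 genes rose and 0 fell, where 3.16% of 14154 genes passed as higher and 3.79% as lower; 24 of the 36 were higher at an unadjusted p under 0.05, against 9.85% of all genes. The genotypes did not overlap for 14 of the 36 genes, against 12.5% of all genes. With median-ratio scaling the median of all genes moved to 0.0020, that of the 36 genes to 1.07, and 14 of the 36 rose, where 6.74% of all genes passed as higher. The summed level was 364, 616 and 239 TPM in the controls and 702, 1065 and 635 TPM in the knockouts, so control 2 lay just under knockout 3.

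The genes that passed in 6-day lungs were Ccnb1 and Cdkn3. Ccnb1 was 9.62, 13.9 and 5.38 TPM in controls and 22.7, 27.4 and 21.1 TPM in knockouts (1.29 ± 0.30, limma adjusted p 0.0411), and Cdkn3 was 4.45, 7.93 and 2.84 TPM in controls and 11.3, 22.4 and 18.4 TPM in knockouts (1.63 ± 0.35, limma adjusted p 0.0319). Both had all knockout mice above all control mice. Neither passed without control 1 (adjusted p 0.158 and 0.146), control 3 (0.132 and 0.137) or knockout 2 (0.130 and 0.106), and the number of the 36 genes that rose was 9 without control 2, 5 without knockout 1 and 6 without knockout 3. Of all genes 2.42%, 3.25% and 7.19% passed as higher in those 3 fits.

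Birc5 was 18.6, 37.1 and 11.6 TPM in 6-day control lungs and 44.8, 69.5 and 45.5 TPM in knockouts (log2 difference 1.33 ± 0.38, limma adjusted p 0.075). Ube2c was 28.8, 50.02 and 19.5 TPM in controls and 61.2, 104 and 64.6 TPM in knockouts (1.26 ± 0.34, limma adjusted p 0.0657). Cdc20 was 17.2, 36.4 and 15.5 TPM in controls and 41.7, 62.3 and 37.9 TPM in knockouts (1.08 ± 0.33, limma adjusted p 0.0911). The genotypes did not overlap for these 3 genes, although control 2 came near the lowest knockout for Cdc20. Mki67 did overlap, with 12.8, 22.8 and 7.82 TPM in controls and 23.7, 30.8 and 14.0 TPM in knockouts (0.68 ± 0.39, limma adjusted p 0.311), and so did Top2a, at 22.9, 38.1 and 14.2 against 37.3, 55.9 and 28.1 TPM (0.72 ± 0.36). In both genes control 2 was above knockout 3.

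Further genes of the 6-day lungs did not pass with limma. Plk1 was 6.11, 13.6 and 4.66 TPM in controls and 17.8, 24.4 and 11.6 TPM in knockouts. Knstrn was 5.21, 7.80 and 3.45 TPM in controls and 11.04, 16.0 and 10.3 TPM in knockouts. Hmmr, a microtubule-binding protein of the spindle, was 4.61, 7.39 and 2.56 TPM in controls and 11.03, 14.7 and 8.28 TPM in knockouts. In each of these 3 genes control 2 was the highest control and knockout 2 the highest knockout. Bub1 was 4.16, 5.13 and 3.59 TPM in controls and 6.62, 11.5 and 9.29 TPM in knockouts (0.92 ± 0.23, limma adjusted p 0.0529). Kif2c was 3.72, 6.39 and 1.93 against 9.04, 10.9 and 5.42 TPM. Racgap1 was 16.4, 25.6 and 11.7 against 27.7, 39.4 and 21.8 TPM. Of these 6 genes, Knstrn, Hmmr and Bub1 had no overlap between genotypes, while control 2 exceeded knockout 3 for Plk1, Kif2c and Racgap1.

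The mice of the 6-day lungs were ranked nearly alike by the 36 genes. Control 2 was the highest control and control 3 the lowest control for 36 of 36 genes, knockout 2 was the highest knockout for 36 of 36, and knockout 3 was the lowest for 26. Among the AT2 libraries, each a pool of 3 mice and not a single mouse, none held more than 25 of the 36 highest or 23 of the 36 lowest values of its genotype. Haemoglobin transcripts made up 0.876% to 3.22% of TPM in the 6-day control lungs, lowest in control 2, and 1.28%, 4.52% and 8.45% in knockouts 1, 2 and 3; their part in the differences between mice was not tested.

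**Figure D3:**
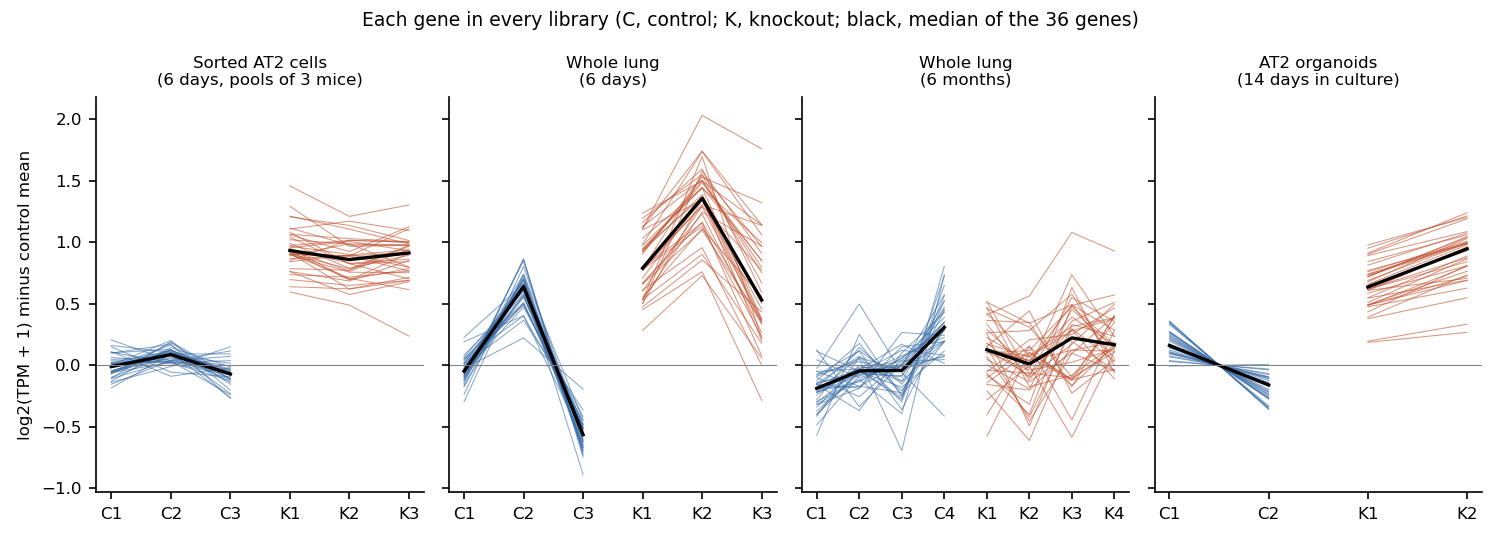
Log2(TPM + 1) of each of the 36 genes in every library after subtracting that gene's control mean, for the 4 kinds of sample; C and K name control and knockout libraries, thin lines are genes and the black line is their median. In 6-day lungs all control lines are highest at control 2 and lowest at control 3, and in sorted AT2 cells the knockout lines lie above the control lines, with no order of libraries shared by all genes.

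In the 6-month lungs the genes were low in both genotypes and 1 of 33 tested genes passed, where 15.9% of 14177 genes passed as higher and 13.9% as lower. The summed level of the 36 genes was 121 ± 26.6 TPM (SD, n = 4) in controls and 133 ± 13.3 TPM in knockouts, a ratio of 1.10, and the median log2 fold change was 0.12 against -0.0048 over all genes. Of all calls in these lungs 53.5% were higher, or 42.6% with quantile normalization. Of the 33 genes, 25 had a positive value, against 49.1% of all genes, and 2 were higher at an unadjusted p under 0.05, against 20.7% of all genes. Ttk, Cenpe and Cenpf were below the filter, with no library above 1.30 TPM. The median of the mean TPM was 2.70 in controls and 2.87 in knockouts; no level was compared by test between tables, because the tables were made separately.

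Bub1b was the gene that rose in 6-month lungs. It was 2.18, 2.37, 2.86 and 3.52 TPM in controls and 3.91, 4.46, 6.82 and 6.04 TPM in knockouts (0.75 ± 0.17, limma adjusted p 0.00679), and every knockout mouse was above every control mouse, as for 16.4% of all genes. Of the other checkpoint kinases, Bub1 was 0.891 to 2.10 TPM over both genotypes and did not pass. Melk (0.41 ± 0.17, adjusted p 0.0926) had the next largest value, at 1.02, 0.856, 0.790 and 1.85 TPM in controls and 1.98, 1.65, 1.94 and 1.55 TPM in knockouts; control 4 exceeded the lowest knockout.

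Ccnb1 in 6-month lungs was 1.83, 2.20, 1.64 and 5.06 TPM in controls and 3.38, 2.19, 3.45 and 3.94 TPM in knockouts (0.27 ± 0.25, limma adjusted p 0.47), with control 4 above all other mice. Birc5 was 6.09, 6.82, 3.67 and 11.6 TPM in controls and 8.04, 4.37, 8.51 and 7.90 TPM in knockouts (0.08 ± 0.27). Control 4 was again the highest of the 8 mice for Birc5. Mki67 was 2.45, 3.54, 3.82 and 6.17 TPM in controls and 4.27, 3.54, 6.07 and 5.18 TPM in knockouts (0.24 ± 0.21). Cdc20 was 6.19, 7.85, 6.43 and 8.31 TPM in controls and 6.06, 4.33, 8.32 and 6.91 TPM in knockouts (-0.17 ± 0.17). The genotypes overlapped for all 4 of these genes. Control 4 was the highest control for 32 of the 36 genes; without it 5 of 33 genes passed, a share near the 16.1% of all genes that passed as higher in that fit, and the median was 0.31. Its T cell markers were also the highest of the controls, whose sums ran from 93.4 to 147 TPM, and their part in the mitotic levels was not tested.

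The remaining named genes of the 6-month lungs also overlapped. Tpx2 was 1.91, 2.17, 2.14 and 3.24 TPM in controls and 3.46, 2.51, 3.14 and 3.35 TPM in knockouts (0.30 ± 0.15). Kif4 was 1.73, 0.983, 1.53 and 1.88 TPM in controls and 2.06, 1.46, 3.17 and 1.94 TPM in knockouts (0.31 ± 0.18). Tpx2 was highest in a knockout and lowest in a control, and Kif4 likewise. Knstrn was 1.39, 1.74, 0.969 and 2.18 against 1.96, 1.57, 2.56 and 1.62 TPM (0.20 ± 0.18). Racgap1 was 5.51, 6.60, 5.25 and 7.78 against 6.74, 6.84, 9.04 and 7.10 TPM (0.22 ± 0.13). Cdca3 was 3.58, 2.97, 4.49 and 5.89 against 5.60, 5.52, 3.54 and 5.76 TPM (0.23 ± 0.19). For each of these 5 genes at least 1 control mouse lay above at least 1 knockout mouse.

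The AT2 organoids held the highest summed level of the 36 genes, at 1599 and 1232 TPM in the 2 controls and 2224 and 2670 TPM in the 2 knockouts, a ratio of the means of 1.73. All 36 genes were higher in both knockout cultures than in both control cultures, a pattern held by 39.6% of all genes tested. With limma 0 of the 36 passed, where 0.218% of 12406 genes passed as higher and 0.387% as lower; 34 of the 36 were higher at an unadjusted p under 0.05, against 19.7% of all genes. The median log2 fold change was 0.79, against 0.06 over all genes, of which 54.9% had a positive value, and adjusted p-values ran from 0.0656 to 0.228. Without control 1 the number that passed was 34, where 29% of all genes passed as higher, and without control 2 it was 22, where 11.7% did; without either knockout it was 0, as for all genes, in fits where 1 genotype had a single culture.

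Ect2 had the smallest adjusted p in organoids, with 35.9 and 28.9 TPM in controls and 60.6 and 69.5 TPM in knockouts (0.99 ± 0.16, limma adjusted p 0.0656). Birc5 was 76.0 and 52.4 TPM in controls and 125 and 147 TPM in knockouts (1.09 ± 0.22), and Pbk 44.2 and 29.8 against 71.1 and 85.5 TPM (1.08 ± 0.23). In these genes knockout 2 was above knockout 1 and control 1 above control 2. The same order of cultures held widely: control 1 was the higher control for 35 of 36 genes and knockout 2 the higher knockout for 36 of 36.

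Cdc20 in organoids was 79.9 and 48.4 TPM in controls and 112 and 131 TPM in knockouts (0.95 ± 0.27). Ccnb1 was 71.4 and 56.5 TPM in controls and 98.1 and 117 TPM in knockouts (0.75 ± 0.17). Mki67 was 77.8 and 53.4 TPM in controls and 90.9 and 105 TPM in knockouts (0.59 ± 0.22). For Mki67 the knockouts lay above the controls by less than the controls differed from each other, which was not so for Cdc20 and Ccnb1. Top2a was 112 and 85.0 TPM in controls and 132 and 172 TPM in knockouts. Ccna2 was 55.3 and 45.3 against 83.0 and 104 TPM. Bub1 was 28.1 and 17.0 against 38.0 and 44.4 TPM. Top2a and Bub1, like Mki67, had a gap between genotypes that was smaller than the gap between control cultures. Kif23 was 50.1 and 30.9 against 69.9 and 84.1 TPM, and Tpx2 28.9 and 23.3 against 41.5 and 52.1 TPM. Knstrn was 28.0 and 23.9 against 38.2 and 42.4 TPM, and Cdca3 50.5 and 44.0 against 80.5 and 95.9 TPM. Control 1 was the higher control in all of these genes. Cenpe (0.26 ± 0.13, adjusted p 0.207) and Cenpf (0.23 ± 0.12, adjusted p 0.228) had the smallest differences of the 36.

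**Figure D4:**
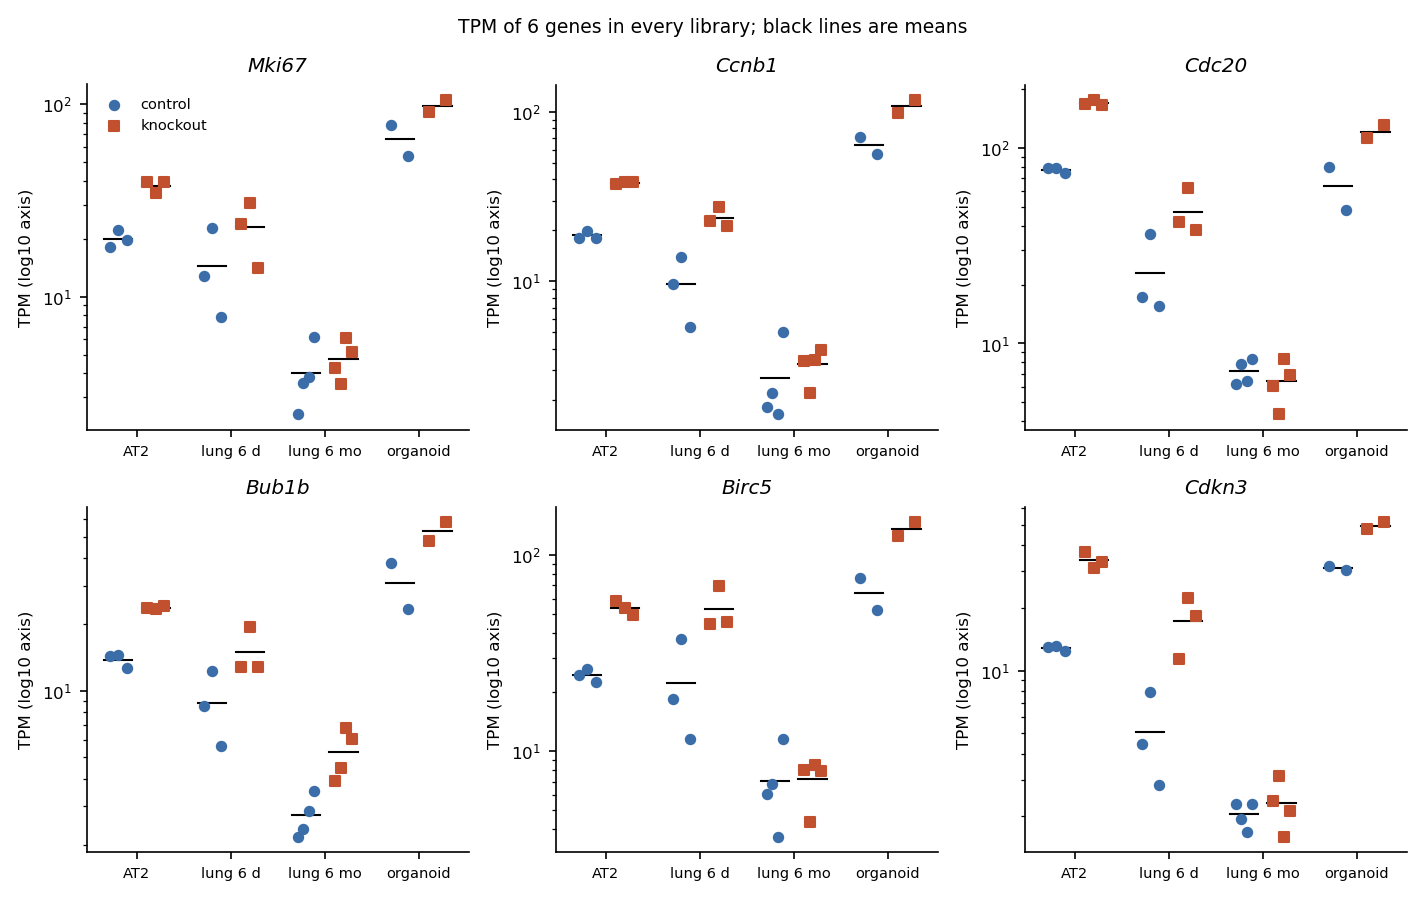
TPM (log10 axis) of Mki67, Ccnb1, Cdc20, Bub1b, Birc5 and Cdkn3 in every library of the 4 kinds of sample, with circles for controls, squares for knockouts and black lines for means. Genotypes separate for all 6 genes in sorted AT2 cells and organoids, and for Bub1b alone of the 6 in 6-month lungs, where its knockouts lie at 3.91 to 6.82 TPM and its controls at 2.18 to 3.52 TPM.

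The knockout effects were then compared between kinds of sample, as differences of the fitted log2 changes. Between sorted AT2 cells and 6-day lungs 0 of 36 genes differed, also at an unadjusted p under 0.05, which 16.6% of all genes reached, with a median difference of -0.03 against 0.20 over all genes; 0.705% of 11766 genes passed as higher in AT2 cells and 0.357% as lower. The SE of the difference was 0.40 for Mki67 and 0.37 for Top2a, so the effects were not shown to be equal. Between 6-day and 6-month lungs 0 of 33 genes passed, 17 had an unadjusted p under 0.05, against 14.6% of all genes, and 32 had a larger effect at 6 days, against 29.8% of all genes (median difference 0.90, against -0.16 over all genes; 0.353% of 13875 genes passed as larger at 6 days and 2.38% as smaller). Cdkn3 gave a difference of 1.53 ± 0.38 with an adjusted p of 0.0607. The number that passed was 4 without control 2 and 2 without knockout 1 of the 6-day lungs, and 1 without knockout 2 of the 6-month lungs.

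Between organoids and sorted AT2 cells 2 of 36 genes differed, both with a smaller effect in organoids. Of 11351 genes 3.22% passed as larger in organoids and 6.08% as smaller, so the share of the 36 was near that of all genes. Cenpe changed by 0.70 less in organoids (difference -0.70 ± 0.17, adjusted p 0.0338) and Cdkn3 by 0.67 less (difference -0.67 ± 0.14, adjusted p 0.0219). Cdkn3 was 31.9 and 30.2 TPM in control organoids and 47.9 and 51.3 TPM in knockouts, and Cenpe 16.9 and 15.1 against 18.4 and 20.4 TPM; both rose in sorted AT2 cells. The number of genes that differed was 0 without either organoid knockout, 1 without AT2 control 3 or AT2 knockout 3, 5 without organoid control 1 and 6 without organoid control 2.

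The wider set of mitotic genes was described with 116 further genes in 6 lists. Of these, 70 of 116 rose in sorted AT2 cells and 0 fell, where 6.62% of all genes passed as higher and 1.22% as lower. The median was 0.60, against 0.08 over all genes. The spindle and cytokinesis list had 24 of 29 higher, including Tacc3, a spindle microtubule protein, which rose from 14.5 ± 0.444 to 28.5 ± 2.40 TPM (0.92 ± 0.09), and Anln (anillin, of the cleavage furrow), which rose from 12.9 ± 0.734 to 23.9 ± 1.89 TPM (0.84 ± 0.09). The kinetochore and checkpoint list had 23 of 34 higher, among them Sgo2a, a protector of centromeric cohesion (6.04 ± 0.0696 to 12.9 ± 0.958 TPM). The condensin and separase list had 10 of 12 higher and the mitotic entry list 11 of 18, among them Cdc25c, the phosphatase that activates Cdk1 (1.69 ± 0.128 to 4.83 ± 0.114 TPM).

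Of the 15 core subunits of the APC/C, 2 rose in sorted AT2 cells (Anapc5 and Anapc15, chosen after their values were seen), against 6.62% of all genes, and the median of that list was 0.16. At an unadjusted p under 0.05, 5 were higher, against 20.5% of all genes, and 1 was lower. Genotypes did not overlap, with knockouts higher, for 8 of the 15, against 25.4% of all genes. Of the 8 inhibitors of mitotic entry 0 passed there with limma, 2 were higher at an unadjusted p under 0.05, against 20.5% of all genes, and the median was 0.23. The 2 APC/C partners among the 36 genes, Cdc20 and Ube2c, both rose. In organoids the APC/C list had a median of 0.30 and the inhibitors one of 0.37, with 0 of the 116 genes passing and 70 higher at an unadjusted p under 0.05, against 19.7% of all genes. The inhibitor Gadd45a had the smallest adjusted p of the 116, with means of 59.8 TPM in controls and 31.6 TPM in knockouts (-0.90 ± 0.10, limma adjusted p 0.0528). It was lower in both knockouts, as were 32% of all genes, while 6 of the 8 inhibitors had a positive value. Psrc1, Ska2 and Fam83d came next, all higher in both knockouts.

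In 6-day lungs 8 of the 116 genes rose and 1, Pttg1 (securin), fell, against 3.16% and 3.79% of all genes; the named ones that rose were Cenph, a kinetochore protein (1.54 ± 0.688 to 6.90 ± 2.21 TPM), Cdca5 (sororin, 3.10 ± 1.34 to 9.62 ± 1.65 TPM), Cdc25c (1.20 ± 0.259 to 3.42 ± 0.461 TPM) and the stress-inducible Cdk1 inhibitor Gadd45g (37.0 ± 10.6 to 82.9 ± 7.05 TPM). In 6-month lungs 10 of 96 tested genes rose and 1, again Pttg1, fell, both smaller shares than the 15.9% and 13.9% of all genes. The inhibitors of mitotic entry held 3 of the 10: Wee1, the kinase that holds Cdk1 inactive, rose from 11.4 ± 1.13 to 21.4 ± 3.43 TPM (0.85 ± 0.11, limma adjusted p 0.000189), Gadd45a from 23.2 ± 1.98 to 38.8 ± 3.39 TPM (0.72 ± 0.08, limma adjusted p 7.03e-05) and Gadd45g from 24.3 ± 3.48 to 48.2 ± 9.13 TPM (0.95 ± 0.14, limma adjusted p 0.000318). Gas2l3, a cytoskeletal linker of the midbody, rose from 0.633 ± 0.0949 to 4.42 ± 0.761 TPM.

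**Figure D5:**
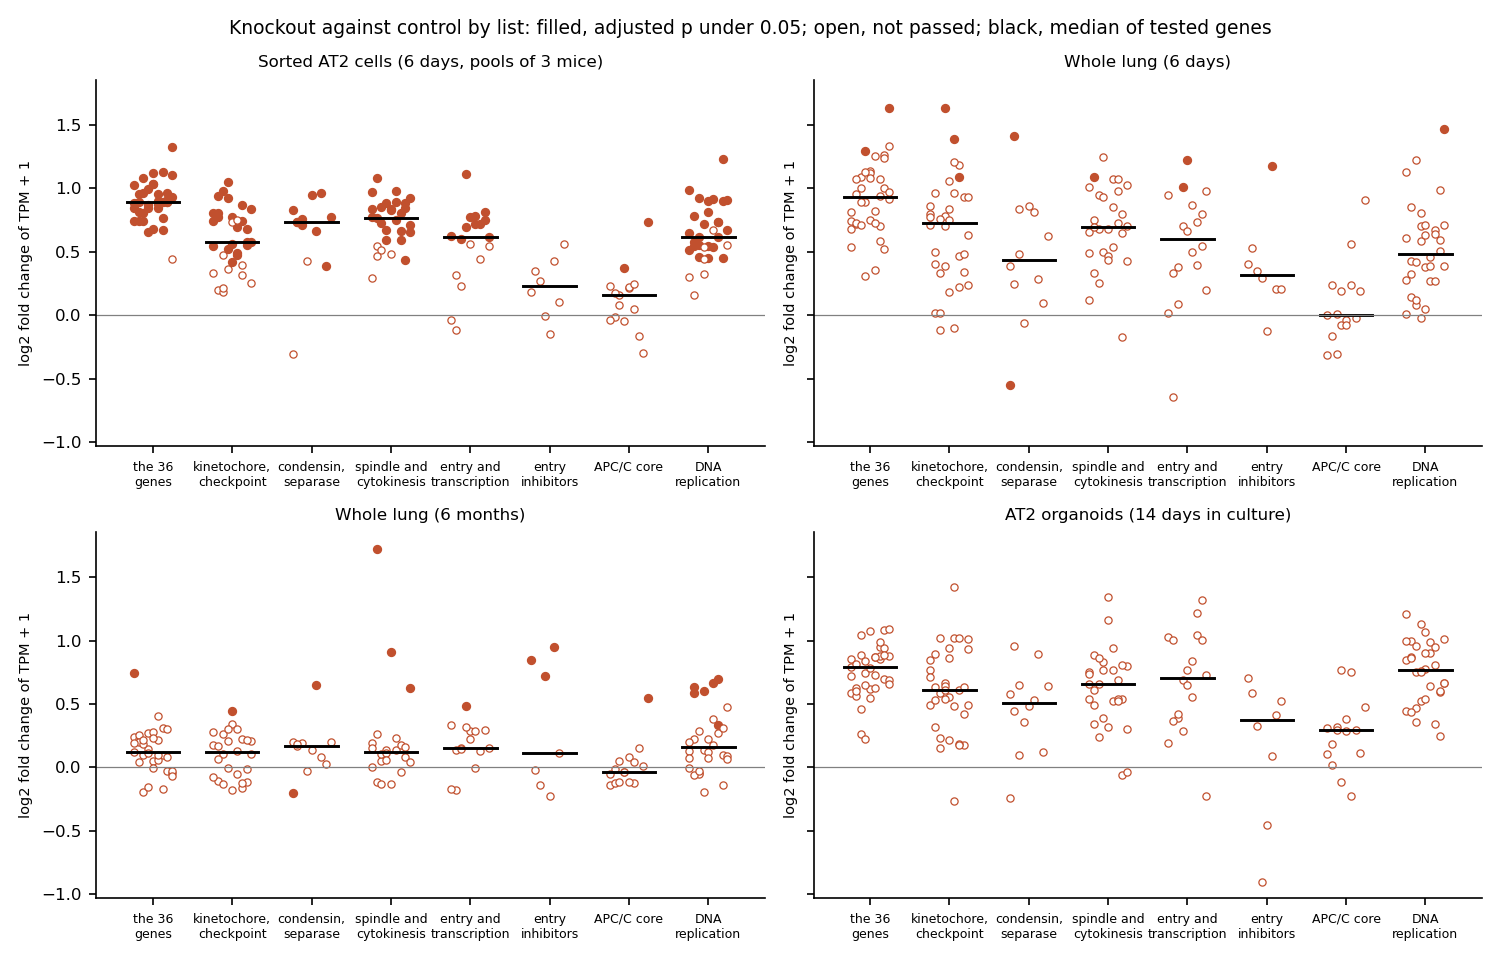
Log2 fold change of TPM + 1 (knockout against control) of every tested gene of the 36 G2 and mitosis genes, of 6 further mitotic lists and of a DNA replication list, in the 4 kinds of sample; filled points passed at an adjusted p under 0.05 and black lines are list medians. In sorted AT2 cells the 36 genes have a median of 0.89 and the APC/C core subunits one of 0.16.

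Genes of DNA replication, which peak before mitosis, gave a reference for the same cells. In the sorted cells 25 of 32 rose, against 6.62% of all genes, with a median of 0.62. Among them were Rrm2, a ribonucleotide reductase subunit (35.98 ± 2.71 to 72.2 ± 5.29 TPM), and Prim1, a primase subunit (19.3 ± 1.29 to 37.4 ± 2.78 TPM). The knockout sum was 1.54 times the control sum, against 1.94 times for the 36 genes, and the ratio of the mitotic to the replication sum was 0.735, 0.743 and 0.695 in controls and 0.821, 0.984 and 0.947 in knockouts, without overlap. In 6-day lungs that ratio was 0.669 ± 0.151 (SD, n = 3) in controls and 0.938 ± 0.0914 in knockouts, again without overlap. It overlapped between genotypes in 6-month lungs (0.321 ± 0.0395 and 0.303 ± 0.0180, n = 4) and in organoids (1.22 and 1.34 against 1.30 and 1.31). In 6-month lungs 6 of 30 replication genes rose, near the 15.9% of all genes, among them Pcna, the replication clamp (118 ± 6.94 to 149 ± 4.06 TPM), and Tk1, thymidine kinase (4.08 ± 0.650 to 6.88 ± 1.00 TPM). At 6 days 1 of 32 passed, near the 3.16% of all genes, Gins2, a helicase subunit (7.88 ± 3.92 to 22.1 ± 2.30 TPM). There 31 of 32 had a positive value, against 35.8% of all genes, with a median of 0.48, against -0.14. At an unadjusted limma p under 0.05, 11 were higher, against 9.85% of all genes. In organoids 0 of 32 passed, with a median of 0.77, against 0.06 over all genes. At an unadjusted limma p under 0.05, 27 were higher there, against 19.7%. The knockout sum was 1.44 times the control sum at 6 days, with overlap, and 1.68 times in organoids, without overlap.

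The labels of the samples were set against cell type markers. AT2 markers, led by Sftpc and Sftpb, summed to 206671 to 221367 TPM in sorted control libraries and 136827 to 195917 TPM in sorted knockouts. Club cell markers summed to 3043 to 13788 TPM in sorted controls and 2340 to 5158 TPM in sorted knockouts, with 0 of 4 passing. T cell, fibroblast and endothelial markers each summed to at most 47.6 TPM in any of these 6 libraries. Of the 6 T cell markers found 0 passed the filter there, and the T cell receptor genes Cd3d, Cd3e and Cd3g were at or near 0. Alveolar macrophage markers, led by Chil3 and Ear2, summed to 36.5 to 72.3 TPM in control and 156 to 303 TPM in knockout AT2 libraries, with 6 of 9 tested markers higher, and pan-leukocyte markers to 17.1 to 50.1 and 77.6 to 134 TPM, with 4 of 8 higher. Erythroid markers summed to 81.4 to 160 TPM in control and 285 to 481 TPM in knockout AT2 libraries, with 2 of 3 tested markers higher, and haemoglobin transcripts made up 0.00810% to 0.0159% and 0.0284% to 0.0479% of TPM. Among all genes tested in these libraries 6.62% passed as higher. Ribosomal protein transcripts made up 13.5% of TPM in knockout 1 and 7.49% to 8.74% in the other AT2 libraries; without knockout 1, 34 of the 36 genes passed. The part of leukocytes and erythroid cells in the rise of the mitotic genes was not tested.

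In 6-day lungs alveolar macrophage markers summed to 1420 to 1649 TPM in controls and 3944 to 13815 TPM in knockouts, with 5 of 12 markers higher and 2 lower, against 3.16% and 3.79% of all genes. In 6-month lungs they summed to 614 to 845 TPM in controls and 5010 to 8561 TPM in knockouts, with 9 of 12 higher and 2 lower, against 15.9% and 13.9% of all genes. Club cell markers, led by Scgb1a1, were lower in knockout lungs, at 69996 to 86702 TPM against 151097 to 174633 TPM at 6 days. AT2 markers summed to 39720 to 46359 TPM in controls and 20532 to 24930 TPM in knockouts at 6 days, with 1 of 10 higher and 2 lower. At 6 months AT2 markers summed to 23463 to 25266 TPM in controls and 26858 to 33364 TPM in knockouts, with 7 of 10 higher and 0 lower. Other lineages differed as well. The 6-month lungs paired a difference in macrophage markers with summed mitotic levels that overlapped, while in 6-day lungs both differed; the part of the cell mixture in the mitotic levels was not tested. In organoids alveolar macrophage markers summed to 8.10 to 13.1 TPM over both genotypes. Basal cell markers summed to 958 and 1919 TPM in controls and 74.8 and 78.8 TPM in knockouts, with 3 of 4 lower, against 0.387% of all genes. Club cell markers summed to 8482 to 11857 TPM in controls and 2268 to 2652 TPM in knockouts, with 1 of 4 lower. Ciliated cell markers summed to 65.6 to 119 TPM in controls and 16.1 to 22.2 TPM in knockouts, and 0 of 6 passed with limma. All 6 were lower at an unadjusted p under 0.05, as were 2088 of 12406 genes. All 6 were also below the controls in both knockouts, against 32% of all genes. AT2 markers summed to 16127 to 53138 TPM in control and 82186 to 89508 TPM in knockout organoids, and AT1 markers to 1637 to 1769 and 2467 to 3104 TPM. With limma 0 of these passed. At an unadjusted p under 0.05, 2 of 10 AT2 and 5 of 8 AT1 markers were higher, against 19.7% of all genes. Genotypes did not overlap, with knockouts higher, for 9 of 10 and 7 of 8, against 39.6% of all genes. The part of these markers in the organoid differences was not tested.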

How the data were processed

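RNA of 24 mouse libraries was poly(A)-selected and sequenced from libraries that do not keep the strand, per the labels' protocols. The authors deposited TPM per gene in 4 tables, 1 for each kind of sample. The submitters' processing notes name GRCm38; which aligner, quantification tool and annotation were used is not given in the sources used here. Of 24972 symbols listed per table, 2 repeated ones were left out. No pair of libraries within a table was identical. The labels do not say whether mice or cell preparations were shared between the kinds of sample.

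Within every table, limma 3.58.1 (R 4.3.3) was run on log2(TPM + 1) with a single genotype term, a variance trend and two-sided tests. Testing required 1 TPM or more in at least the number of libraries of the smaller genotype. Differences between tables were differences of the fitted effects, with Welch-Satterthwaite degrees of freedom. The 36 genes, the lists and the rule for naming genes were chosen with earlier results of these data known. The rule gave library values for the gene with the largest absolute log2 fold change of each role group and for Mki67, Ccnb1, Cdc20 and Birc5, and named up to 4 further mitotic and 2 replication genes with the smallest adjusted p; other genes given with library values were chosen after their values were seen. Promoters and microRNAs came from RefSeq on GRCm38.p6, and 3′ UTRs and exon overlaps from GENCODE M21. The alternatives tried were other pseudocounts (0.1), filters (none, or 5 TPM) and scalings (median-ratio, quantile), dropping the trend, weighting libraries, a replicate block, a shared spread for the differences, and leaving out each library in turn; medians of the 36 genes under these were added after seeing the data. The fits were tested on simulated data with known changes. A log2 change of 1 passed for 89% of changed genes in AT2 cells, 28% in 6-day lungs, 95% in 6-month lungs and 0% in organoids. The changed genes were drawn above a mean level higher than the filter, and the change was added to log2(TPM + 1). In 6-month lungs the median control mean of the 36 genes, 2.70 TPM, was below that level. The 95% does not cover the lower genes there. A gene that did not pass in 6-day lungs or organoids was therefore not shown to be unchanged. Neither was a lower gene that did not pass in 6-month lungs. For the difference of organoids and AT2 cells 40 of 198 simulated calls were false.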

Additional observations from a re-analysis of the deposited data

Results flagged for a closer look

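In 6-month lungs, where each genotype had 4 mice, the gap between the most extreme mouse and its neighbour was compared with the range of its genotype for 72 sets of values, and 4 sets passed Dixon's 95% critical value; chance passes about 1 in 20. Ccnb1 had control 4 far above the other controls (gap over range 0.835; 5.06 against 1.64 to 2.20 TPM). Birc5 had knockout 2 far below the other knockouts (0.851; 4.37 against 7.90 to 8.51 TPM), Racgap1 had knockout 3 above (0.842; 9.04 against 6.74 to 7.10 TPM), and Cdca3 had knockout 3 below (0.893; 3.54 against 5.52 to 5.76 TPM). The 4 sets named 3 different mice, and knockout 3 was high for Racgap1 and low for Cdca3.

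The knockout effect differed between organoids and sorted AT2 cells for Cenpe (-0.70 ± 0.17, adjusted p 0.0338) and Cdkn3 (-0.67 ± 0.14, adjusted p 0.0219), both smaller in organoids. Of 11351 genes 3.22% passed as larger in organoids and 6.08% as smaller, so 2 of 36 was near the share of all genes. In simulated data 40 of 198 calls in this comparison were false. In sorted AT2 cells Cenpe was 4.36, 4.76 and 4.15 TPM in controls and 9.11, 9.04 and 10.7 TPM in knockouts.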

How the results depend on the processing

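In sorted AT2 cells 33 to 36 genes rose under the alternatives tried; the only calls lost were Cenpf and Ttk, both without a filter and without control 2 or knockout 3, and Ttk also without control 1, control 3 or knockout 1. The count of all genes called was 950, and 370 with no filter, 623 with median-ratio scaling, 617 with quantile normalization and 187 to 1214 without 1 library.

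In 6-day lungs the 2 genes that rose became 0 with no filter, 14 with median-ratio scaling, 14 with quantile normalization, 36 with library weights and 0 to 9 without 1 library (0 without control 1, control 3 or knockout 2); all genes called were 983, and 1801, 1888, 8395 with those scalings and weights and 92 to 2049 without 1 library. In 6-month lungs a filter at 5 TPM left 8 of the genes and 0 calls, the count was 1 to 5 without 1 library (5 without control 4), and Birc5 ran from -0.15 (without control 3, adjusted p 0.718) to 0.33 (without control 4) over the fits without 1 library. In organoids 1 gene, Ect2, rose with library weights, and 0 to 34 without 1 library (34 without control 1, 22 without control 2); all genes called were 75, and 0 with no filter, 183 with no variance trend, 659 with library weights and 0 to 6967 without 1 library, where the lone sample is assumed to vary like the other group. The cause of these changes was not tested.

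With the replicate number as a block 36 genes rose in AT2 cells, 18 in 6-day lungs, 1 in 6-month lungs and 0 in organoids, where all genes called became 399. Of all genes 5.18%, 2.51%, 16.8% and 0.983% passed as higher in those fits, in that order. The labels do not say whether libraries with the same number shared more than that number. Their deviations correlated at -0.173 to 0.172 in AT2 cells, -0.154 to 0.00534 in 6-day lungs, 0.0803 to 0.217 in 6-month lungs (each best with its own number) and -0.0737 in organoids. Of the differences, 6-day against 6-month lungs gave 3 calls under the block, 1 with a shared spread and 0 to 4 without 1 library, and organoids against AT2 cells 0 under the block and 0 to 6 without 1 library; AT2 cells against 6-day lungs gave 0 in all. Over single genes and alternatives in AT2 cells, 494 values kept their direction and side of the threshold, 9 no longer passed and 1 newly passed.

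Unknown depth leaves counting error unmeasured, most for genes near 1 TPM in 6-month lungs, and 2 cultures per genotype limit the organoid tests.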
